A study of Mus musculus with 12 samples.

Results

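The genes described here are 39 genes of DNA replication and mitosis, taken by symbol from a table of 48321 mouse genes. Of these, 22 act in DNA replication (the replication members) and 17 act in mitosis or mark dividing cells (the mitotic members). All 39 were found once in the table, and all 39 passed the filter that kept 11998 genes for testing, namely a normalized read count of at least 10 in at least 3 of the 12 libraries.

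The RNA came from brown adipocytes differentiated in culture from preadipocytes of the interscapular brown fat of wild-type C57BL/6J mice, per the methods from a newborn animal. All cells carried the SV40 large T antigen used to immortalize them, a viral protein known to bind the retinoblastoma family and p53. The cells had been transduced with a lentivirus holding either the empty pLEX vector (vector) or tSema4B, a soluble, truncated form of semaphorin 4B that imitates the form released by the protease ADAM17. After 8 days of differentiation each line was kept for 6 h in serum-free medium without agonist (unstimulated) or with 2 µM norepinephrine (NE), the adrenergic agonist that activates brown fat. This gave 4 groups of 3 libraries, called vector unstimulated, vector NE, tSema4B unstimulated and tSema4B NE. Each construct was carried by 1 transduced line and the series' design calls the replicates of a group technical, so the tests below measure the spread between these libraries and compare these lines. Each library held between 2000780 and 5409583 reads on genes, the vector libraries being the deeper ones in both conditions. Sema4b itself read 110786 to 124008 normalized counts in vector unstimulated and 258257 to 316850.0 in tSema4B unstimulated libraries, and 65472 to 81754 against 208760.0 to 270694 after NE, so the libraries labelled tSema4B were higher in both conditions while the gene was also abundant in vector cells.

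DNA replication starts from origins licensed by Cdc6, Cdt1 and the MCM helicase, is fired with the GINS complex under cyclin E kinase, and is carried out by polymerases, the clamp Pcna and ligases on nucleotides made by ribonucleotide reductase and thymidylate synthase. Mitosis is driven by Cdk1 with cyclins A and B and by Aurora and Polo kinases, and it ends when the anaphase-promoting complex, with Cdc20 and Ube2c, has securin and cyclin B destroyed. Genes of the first set are known as targets of E2F factors early in the cycle, and those of the second as targets that peak in G2 and M through CHR elements and CCAAT boxes, bound by the MuvB complex with B-Myb and FoxM1 and by NF-Y.

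Promoter stretches of 8 members are shown because the sets differ in which of these words they hold and because the members chosen differ in their response. Each runs 5′ to 3′ on the strand of the gene from 150 bases before to 30 after the RefSeq start (GRCm38.p6). Capitals mark an E2F word (TTTCCCGC, TTTGGCGC, TTTCGCGC or TTTGCCGC), a CHR word (TTTGAA or TTCGAA) or a CCAAT box (CCAAT), on either strand, so that ATTGG is a CCAAT box and TTCAAA a CHR word on the other strand. Cdc20 lies at chr4:118437314-118437493 (minus strand), Cenpa at chr5:30666736-30666915 (plus strand), Ube2c at chr2:164769779-164769958 (plus strand), Ccnb2 at chr9:70421525-70421704 (minus strand) and Ccnb1 at chr13:100786457-100786636 (minus strand). The replication members Mcm3, Mcm6 and Rrm2 lie at chr1:20820283-20820462 (minus strand), chr1:128359676-128359855 (minus strand) and chr12:24708104-24708283 (plus strand).
Cdc20: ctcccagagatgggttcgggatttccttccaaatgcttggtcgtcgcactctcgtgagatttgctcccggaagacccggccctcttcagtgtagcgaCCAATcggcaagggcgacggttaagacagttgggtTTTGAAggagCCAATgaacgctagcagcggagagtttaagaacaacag
Cenpa: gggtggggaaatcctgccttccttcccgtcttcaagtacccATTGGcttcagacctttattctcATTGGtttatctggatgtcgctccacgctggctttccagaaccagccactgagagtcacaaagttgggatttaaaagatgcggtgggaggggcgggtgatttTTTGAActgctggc
Ube2c: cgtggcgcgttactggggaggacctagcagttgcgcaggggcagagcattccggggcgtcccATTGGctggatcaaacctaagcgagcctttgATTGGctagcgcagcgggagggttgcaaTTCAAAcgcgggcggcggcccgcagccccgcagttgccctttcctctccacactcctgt
Ccnb2: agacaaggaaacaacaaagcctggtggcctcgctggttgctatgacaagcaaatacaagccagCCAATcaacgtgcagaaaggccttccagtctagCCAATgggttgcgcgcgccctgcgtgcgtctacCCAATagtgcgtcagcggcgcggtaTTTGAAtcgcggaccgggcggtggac
Ccnb1: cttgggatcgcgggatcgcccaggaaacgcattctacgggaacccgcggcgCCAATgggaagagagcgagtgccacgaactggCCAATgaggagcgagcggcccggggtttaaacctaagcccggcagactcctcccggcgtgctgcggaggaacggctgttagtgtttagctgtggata
Mcm3: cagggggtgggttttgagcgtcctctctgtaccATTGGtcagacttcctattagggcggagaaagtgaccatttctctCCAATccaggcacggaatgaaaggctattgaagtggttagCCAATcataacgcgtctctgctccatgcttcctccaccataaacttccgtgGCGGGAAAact
Mcm6: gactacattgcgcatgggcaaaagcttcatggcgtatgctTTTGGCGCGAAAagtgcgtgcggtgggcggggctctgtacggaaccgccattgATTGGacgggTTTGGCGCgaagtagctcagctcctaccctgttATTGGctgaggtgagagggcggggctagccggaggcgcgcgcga
Rrm2: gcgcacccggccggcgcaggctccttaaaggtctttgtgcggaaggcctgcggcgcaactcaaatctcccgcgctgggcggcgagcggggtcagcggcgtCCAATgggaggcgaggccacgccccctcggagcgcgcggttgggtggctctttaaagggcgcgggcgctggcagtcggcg

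Cdc20, Cenpa, Ube2c and Ccnb2 each hold 1 CHR word and CCAAT boxes in these stretches, Ccnb1 holds 2 CCAAT boxes and no CHR word, Mcm3 and Mcm6 hold 1 and 3 E2F words (a pair of those in Mcm6 share letters) beside CCAAT boxes, and Rrm2 holds 1 CCAAT box alone. RefSeq windows of 300 bases (250 before to 50 after a start) were found for 15 of the 17 mitotic members and 18 of the 22 replication members, which have 15 and 22 windows. Aurkb, Ccna2, Ccne2, Gins1, Gins2 and Mcm4 had no entry in the table used. A CHR word stood in 12 of the 15 mitotic windows (80%) and in 3 of the 22 replication windows (13.6%), against 19.2% of all 32851 windows. A CCAAT box stood in 14 of 15 (93.3%) and 11 of 22 (50%), against 37.4% of all windows. An E2F word stood in 1 of 15 (6.67%) and 8 of 22 (36.4%), against 2.26% of all windows. Words of different motifs overlapped once among the member windows, in Mcm7. These are matches of letters in a fixed window, a description and not a site.

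**Figure D1:**
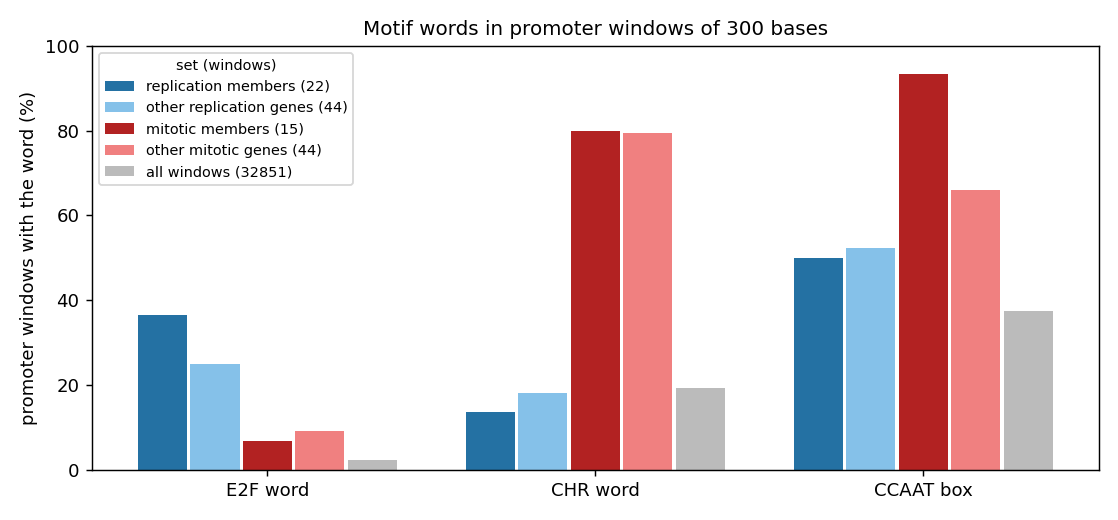
Share of RefSeq promoter windows of 300 bases (y axis, percent) that hold an E2F word, a CHR word or a CCAAT box (x axis), for replication and mitotic members, for lists of other replication and mitotic genes, and for all windows, with the number of windows in parentheses. CHR words stand in 80% of the mitotic windows against 19.2% of all windows, and E2F words in 36.4% of the replication windows against 2.26%.

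The question that runs through all comparisons is whether replication and mitotic transcripts differed together between the tSema4B and vector lines, or with NE. Summed over the 22 replication members, the level differed little between groups. The sums were 15541, 15243 and 14734 normalized counts in vector unstimulated, 14681, 15435 and 15068 in tSema4B unstimulated, 15086, 14263 and 14756 in vector NE and 15825, 15610.3 and 15572 in tSema4B NE libraries. The unstimulated groups overlapped, and after NE the tSema4B libraries all lay above the vector libraries, by 6.58% in the mean. That difference depended on scaling, being 13.9% with libraries rescaled to the same total and 2.88%, with overlap, when rescaled over nuclear genes (mitochondrial transcripts left out), where the unstimulated tSema4B sums were also below those of vector without overlap, at -6.59%. Both rescalings kept Sema4b, higher in the tSema4B libraries, in the total, and its part in these shifts was not tested. Summed over the 17 mitotic members, the level was lower with tSema4B. Those sums were 14330.1, 14525 and 13518 in vector unstimulated, 9575, 11138 and 10813 in tSema4B unstimulated, 12592, 13168 and 12432 in vector NE and 9984, 10656 and 11617 in tSema4B NE libraries. In both conditions the highest tSema4B library was lower than the lowest vector library, by 25.6% in the mean without stimulation and by 15.5% after NE. The mitotic sums stayed apart under both rescalings, at -24.3% and -9.83% with the same total and -30% and -18.5% over nuclear genes. The ratio of the mitotic to the replication sum was 0.931 ± 0.019 (SD, n = 3) in vector unstimulated, 0.697 ± 0.039 in tSema4B unstimulated, 0.867 ± 0.049 in vector NE and 0.687 ± 0.058 in tSema4B NE libraries. Abundant genes weigh most in these sums. The mean log2(normalized count + 1), with equal weight per gene, was also lower with tSema4B for unstimulated replication members. It was 8.714 ± 0.051 (SD) in vector and 8.594 ± 0.020 in tSema4B libraries, then 8.698 ± 0.018 and 8.724 ± 0.035 after NE. For mitotic members it was 9.498 ± 0.048 and 9.053 ± 0.106, then 9.339 ± 0.067 and 9.053 ± 0.096. In bulk RNA, fewer cells in a phase of the cycle and less of a transcript per cell cannot be told apart.

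**Figure D2:**
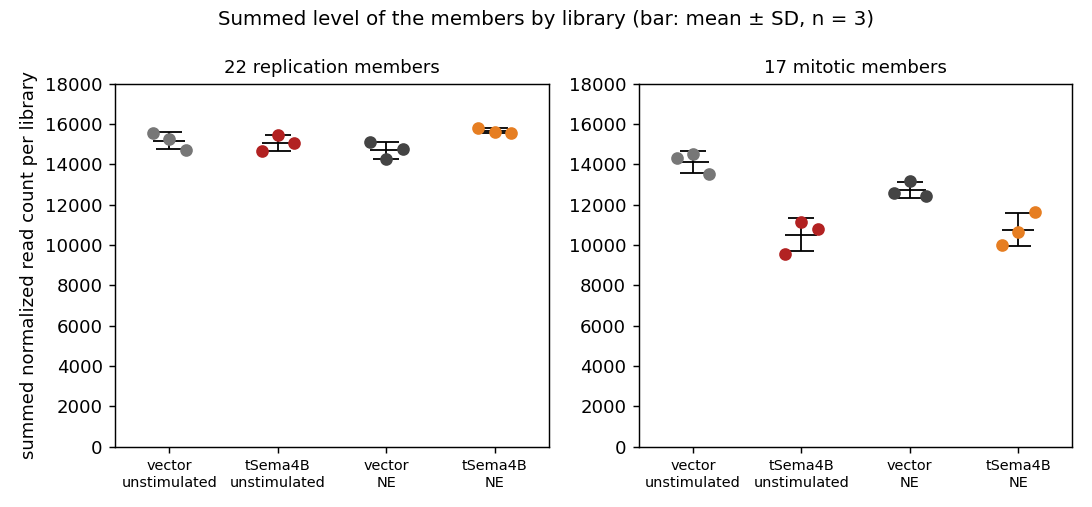
Summed normalized read count (y axis, from 0) of the 22 replication members (left) and the 17 mitotic members (right) in each of the 12 libraries (points), by group (x axis), with the group mean ± SD (bars, n = 3). Replication sums lie between 14263 and 15825 in all groups, while mitotic sums lie between 13518 and 14525 in vector unstimulated and between 9575 and 11138 in tSema4B unstimulated libraries.

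tSema4B against vector, without stimulation, showed lower mitotic transcripts and a small group of lower replication transcripts. Fold changes here and below are differences of log2(normalized count + 1), tested with limma over all 11998 genes, and a gene passed at a Benjamini-Hochberg adjusted p of 0.05 or less. Of the 17 mitotic members 10 were lower and none was higher, and of the 22 replication members 5 were lower and 1 was higher, so that 15 of 39 fell and 1 of 39 rose where 7.39% of all genes fell and 5.64% rose. By limma no mitotic member was above 0 at an unadjusted p under 0.05, and edgeR and DESeq2 called none higher. The median log2 fold change was -0.41 over the mitotic and 0.04 over the replication members, beside -0.003 over all genes. All 17 mitotic members had a fitted value below 0, from -0.90 to -0.06. With tSema4B unstimulated replicate 1 left out, 15 were below 0, 2 were above, and 7 passed as lower. No member reached both the adjusted p and a log2 fold change of 1 in size, which 3.82% of all genes did in either direction.

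**Figure D3:**
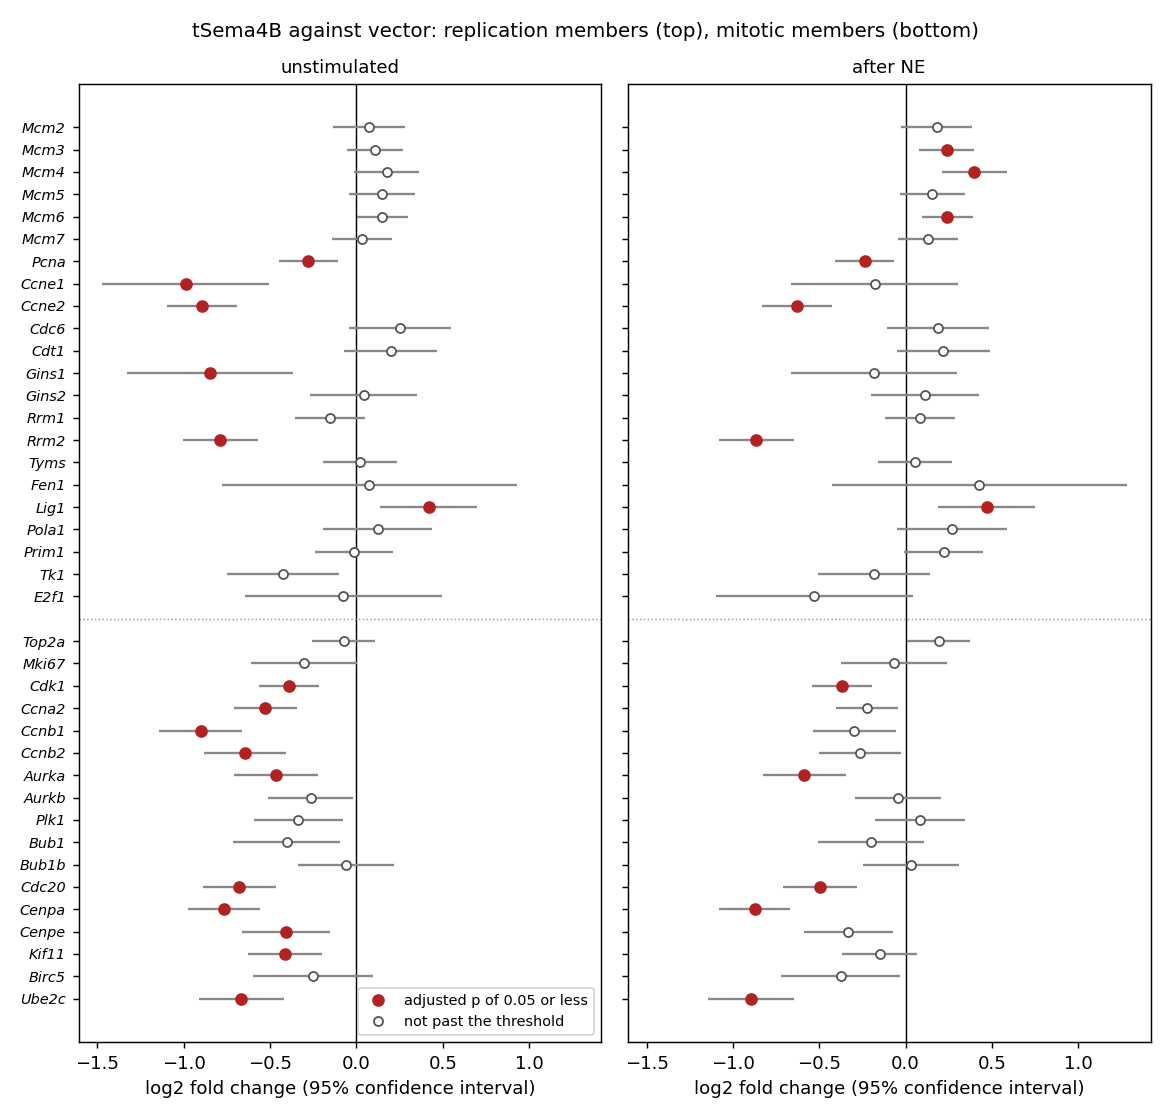
log2 fold change of tSema4B against vector (x axis) with its 95% confidence interval (lines) for each member (y axis), unstimulated (left) and after NE (right), from limma on 12 libraries. Filled points passed an adjusted p of 0.05, 16 without stimulation and 12 after NE. The mitotic members in the lower block lie mostly left of 0, while the MCM subunits at the top lie right of it.

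Among the mitotic members the kinase Cdk1 and its cyclins came first in the order of events. Ccnb1, cyclin B1, read 953, 971 and 812 normalized counts in vector unstimulated and 478, 565 and 427 in tSema4B unstimulated libraries, which is -0.90 ± 0.12 (SE, adjusted p = 8.02e-06) on the log2 scale. After NE it read 761, 708 and 698 in vector and 524, 573 and 674 in tSema4B libraries, -0.30 (adjusted p = 0.0714). The groups did not overlap in either condition, but the difference after NE did not pass the test. Ccnb2, cyclin B2, read 831, 896 and 783 in vector unstimulated, 477, 592 and 539 in tSema4B unstimulated, 477, 539 and 532 in vector NE and 389, 405 and 499 in tSema4B NE libraries. Its change with tSema4B was -0.64 ± 0.11 (SE, adjusted p = 0.000382) unstimulated and -0.26 (adjusted p = 0.105) after NE, where the groups overlapped. Vector unstimulated stood above the other 3 groups for Ccnb2.

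Ccna2, cyclin A2, which serves both S phase and entry into mitosis, read 1794, 1714 and 1547 normalized counts in vector unstimulated and 1116, 1194 and 1192 in tSema4B unstimulated libraries (-0.53 ± 0.09 SE, adjusted p = 0.000176). It read 1679.8, 1599 and 1609 in vector NE and 1359, 1264 and 1578 in tSema4B NE libraries (-0.22, adjusted p = 0.0711), where the highest tSema4B library came close to the lowest vector library. Cdk1, the kinase these cyclins bind, read 1340.0, 1334 and 1314 and 908, 1033 and 1105 without stimulation and 1244, 1309 and 1268 and 951, 1021 and 991 after NE, vector first. Its groups stayed apart in both conditions, with -0.39 ± 0.08 (SE, adjusted p = 0.00246) and -0.37 ± 0.08 (SE, adjusted p = 0.00307). After NE, Ccna2, Ccnb1 and Ccnb2 passed as lower with libraries rescaled over nuclear genes (adjusted p = 0.0215, 0.0289 and 0.0453) and without tSema4B NE replicate 3 (0.019, 0.029 and 0.032), and Ccnb1 passed with reads thinned to the shallowest library (0.0469).

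Cenpa, Ube2c and Cdc20, genes of the centromere and the exit from mitosis, had lower fold changes than most mitotic members in both conditions. Cenpa, the histone H3 variant that marks centromeres, read 808, 804 and 739.5 normalized counts in vector unstimulated and 460.0, 433 and 487 in tSema4B unstimulated libraries (-0.77 ± 0.10 SE, adjusted p = 9.06e-06). After NE it read 743, 822 and 750.3 and 462, 408 and 392 (-0.88 ± 0.10 SE, adjusted p = 1.5e-06). Every tSema4B library was below every vector library. Ube2c, the ubiquitin-conjugating enzyme of the anaphase-promoting complex, read 842, 905 and 806 against 453, 596 and 568 without stimulation (-0.67 ± 0.12 SE, adjusted p = 0.000438) and 912, 878 and 862 against 392, 544 and 499 after NE (-0.90 ± 0.12 SE, adjusted p = 1.06e-05). Cdc20, an activator of the same complex, read 1255, 1207 and 1147 against 701, 770.3 and 784 (-0.68 ± 0.10 SE, adjusted p = 6.16e-05) and, after NE, 1035, 1099 and 1004 against 624, 757 and 863 (-0.50 ± 0.10 SE, adjusted p = 0.00136). Neither gene's groups overlapped. These are genes whose promoter stretches, printed above, hold both a CHR word and CCAAT boxes. The same stretch of Aurka, also lower in both conditions, holds 2 CCAAT boxes and no CHR word. Its CHR word lies just outside, 35 bases after the start. Both words stood in 12 of the 15 mitotic windows, those of Top2a and Bub1b among them, so they are not particular to the lower members.

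Aurka, the Aurora kinase of the centrosome, read 457, 489 and 419 normalized counts in vector and 287, 340.3 and 363 in tSema4B libraries without stimulation (-0.47 ± 0.12 SE, adjusted p = 0.00884), a call lost without vector unstimulated replicate 2 or tSema4B unstimulated replicate 1 (adjusted p up to 0.0586). After NE it read 548, 507 and 536 and 375, 318 and 366 (-0.59 ± 0.12 SE, adjusted p = 0.000907), with the groups further apart. Kif11, the kinesin that separates the spindle poles, read 864, 826 and 835 against 579, 712 and 611 without stimulation (-0.41 ± 0.10 SE, adjusted p = 0.00939), lost without tSema4B unstimulated replicate 1 (adjusted p = 0.0538). After NE its groups, 730.4, 680.4 and 667 and 540.5, 664 and 675, overlapped (-0.15, adjusted p = 0.335). Cenpe, a kinetochore kinesin, ranged over 485 to 553 in vector and 369.6 to 425 in tSema4B unstimulated libraries (-0.41, adjusted p = 0.0308), and over 373 to 497 and 301 to 373 after NE (-0.33, adjusted p = 0.0599). After NE Cenpe passed in 5 alternatives, with edgeR (adjusted p = 0.0402), DESeq2 (0.0387), a filter at 50 (0.046), rescaling over nuclear genes (0.0276) and without vector NE replicate 3 (0.0303). The unstimulated call of Cenpe was lost without any of 4 libraries, replicates 1 and 3 of vector and of tSema4B, with an adjusted p of up to 0.113.

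The other 7 mitotic members passed in neither condition by limma as run here. Rescaled over nuclear genes, Aurkb, Plk1 and Bub1 passed as lower without stimulation (adjusted p = 0.0487, 0.0262 and 0.0289), Bub1 also without tSema4B unstimulated replicate 3 (0.0243) and Mki67 without replicate 2 of that group (0.0398). Top2a passed as higher after NE with the same total (0.0183) and without tSema4B NE replicate 1 (0.0462). Top2a, the topoisomerase that untangles sister chromatids, had the largest mean normalized count of the mitotic members, not divided by length. It read 1907, 2212 and 1929 normalized counts in vector unstimulated, 1729, 2079 and 1948 in tSema4B unstimulated, 1779, 1866 and 1883 in vector NE and 1898, 2119.9 and 2320.2 in tSema4B NE libraries. Its unstimulated groups overlapped (-0.07, adjusted p = 0.66), and after NE the tSema4B libraries were above those of vector without passing the test (0.19, adjusted p = 0.129), the opposite side from Cdk1 and Ube2c. Mki67, the proliferation antigen Ki-67, had -0.30 (adjusted p = 0.2) and -0.07 (adjusted p = 0.796), with 95% intervals of -0.61 to 0.00 and -0.37 to 0.24. For the Polo kinase Plk1 the values were -0.34 (adjusted p = 0.0823) and 0.09 (adjusted p = 0.681), and for the checkpoint kinase Bub1 -0.40 (adjusted p = 0.0783) and -0.20 (adjusted p = 0.377). Bub1b, its partner in the spindle checkpoint, had -0.06 (adjusted p = 0.831) and 0.03 (adjusted p = 0.905). The chromosomal passenger genes Aurkb and Birc5 had -0.26 (adjusted p = 0.157) and -0.25 (adjusted p = 0.369) without stimulation and -0.04 (adjusted p = 0.844) and -0.38 (adjusted p = 0.116) after NE. The 95% intervals of Mki67, Plk1, Bub1, Aurkb and Birc5 without stimulation reached below the fitted value of Cdk1, and those of Top2a and Bub1b did not.

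**Figure D4:**
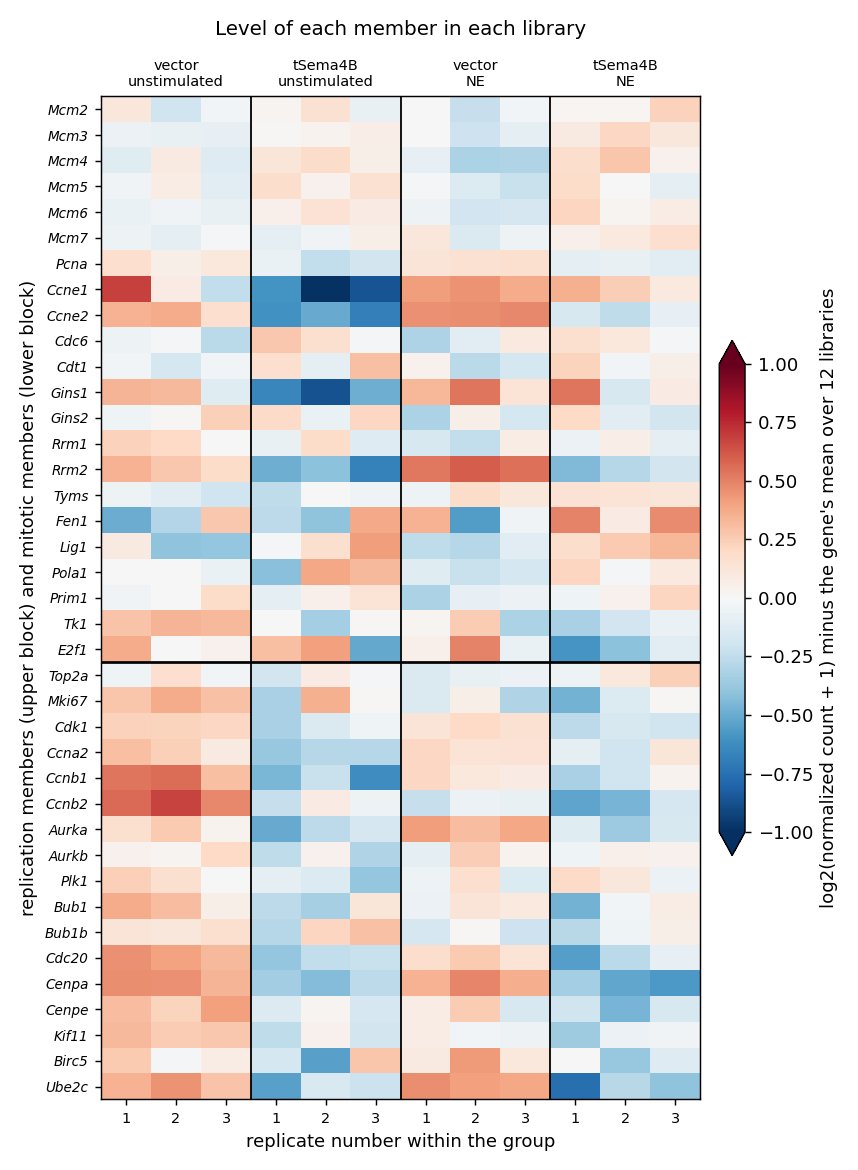
Level of each of the 39 members (rows, replication members above the line and mitotic members below) in each of the 12 libraries (columns, by group and replicate number). Colour gives log2(normalized count + 1) minus the mean of the gene over all libraries, blue for low and red for high. In the lower block vector unstimulated libraries are mostly red and tSema4B libraries mostly blue, while Ccne1, Ccne2, Gins1 and Rrm2 carry most of the contrast in the upper block.

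Among the replication members, those of origin licensing come first, and none of them was called lower by limma. Mcm2 to Mcm7, the 6 subunits of the helicase, all had fitted values above 0 without stimulation, from 0.03 to 0.18, and none of them passed (Mcm6 did with quantile normalization, 0.27, adjusted p = 0.0101). This sign depended on scaling, since with libraries rescaled to the same total over nuclear genes 4 of the 6 were above 0 and the values ran from -0.05 to 0.09. After NE all 6 were above 0, from 0.13 to 0.40, under that rescaling too (0.08 to 0.35), and 3 passed. Mcm2 passed as well with the same total over all genes (0.28, adjusted p = 0.0455). Mcm4 read 1265, 1072 and 1083 normalized counts in vector NE and 1511, 1614 and 1377 in tSema4B NE libraries (0.40 ± 0.09 SE, adjusted p = 0.00303), after 1227, 1422 and 1219 and 1452, 1516 and 1394 in the unstimulated groups (0.18, adjusted p = 0.227). Only the groups after NE were separate for Mcm4, and the call held in every alternative tried.

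Mcm6 had the largest mean normalized count of the replication members, not divided by length. It read 2258, 2302 and 2246 normalized counts in vector unstimulated, 2448, 2609.6 and 2499 in tSema4B unstimulated, 2287, 2073 and 2101 in vector NE and 2739.8, 2413 and 2488 in tSema4B NE libraries. The tSema4B libraries were above those of vector in both conditions, with 0.15 (adjusted p = 0.185) and 0.24 (adjusted p = 0.019). The latter call of Mcm6 was lost without vector NE replicate 2 or 3 or tSema4B NE replicate 1 (adjusted p up to 0.0923). Mcm3 ranged over 1191 to 1369 in vector NE and 1464 to 1584 in tSema4B NE libraries (0.24, adjusted p = 0.0306), a call lost without vector NE replicate 2 or 3 or tSema4B NE replicate 2 or 3 (adjusted p up to 0.148). Rescaled over nuclear genes, neither Mcm3 (adjusted p = 0.0931) nor Mcm6 (0.0605) passed. The licensing factors Cdc6 and Cdt1 had 0.25 and 0.20 without stimulation and 0.19 and 0.22 after NE, with adjusted p between 0.257 and 0.383. Their levels were 187 to 223 and 291 to 322 in vector unstimulated libraries.

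Of the members that act in origin firing, Ccne1, Ccne2 and Gins1 were lower with tSema4B without stimulation, Ccne2 also after NE, and Gins2 passed in neither condition. Ccne2, cyclin E2, had the smallest adjusted p of all members. It read 741, 754 and 653 normalized counts in vector unstimulated and 383, 409.9 and 361 in tSema4B unstimulated libraries (-0.89 ± 0.10 SE, adjusted p = 8.32e-07). After NE it read 798, 801 and 811 and 521, 488 and 549.7 (-0.63 ± 0.10 SE, adjusted p = 7.17e-05). The vector and tSema4B libraries were apart in both conditions. Ccne1, cyclin E1, a low gene, read 126, 82.4 and 65.3 in vector unstimulated and 51.2, 38.7 and 42.4 in tSema4B unstimulated libraries (-0.99 ± 0.23 SE, adjusted p = 0.00569). Its call rested on the highest vector library, since it was lost without vector unstimulated replicate 1 (-0.73, adjusted p = 0.0643). After NE Ccne1 read 104, 107 and 101 and 99.7, 92.8 and 83.2, with the tSema4B libraries just below the vector libraries and no call (-0.18, adjusted p = 0.639). Gins1, a subunit of the GINS complex that activates the helicase, ranged over 70.8 to 97.7 in vector and 41.8 to 54.8 in tSema4B unstimulated libraries (-0.85, adjusted p = 0.0164) and over 85.1 to 113 and 69.1 to 113 after NE (-0.18, adjusted p = 0.632). The unstimulated call of Gins1 was lost without vector replicate 1 or 2 or tSema4B replicate 2 (adjusted p up to 0.0794) and with reads thinned to the shallowest library (0.0906). Gins2, another subunit, had 0.04 (adjusted p = 0.898) and 0.11 (adjusted p = 0.645).

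Ribonucleotide reductase, the enzyme that makes deoxyribonucleotides, had a call for its small subunit, while Rrm1, Tk1 and Tyms, also of nucleotide supply, did not pass for tSema4B in either condition by limma as run here (Tk1 passed as lower without stimulation over nuclear genes, adjusted p = 0.0326). Rrm2, the small subunit, read 675, 639 and 602 normalized counts in vector unstimulated and 378, 399 and 333 in tSema4B unstimulated libraries (-0.79 ± 0.10 SE, adjusted p = 1.19e-05), and 767, 809 and 778 against 390.3, 435 and 468 after NE (-0.87 ± 0.10 SE, adjusted p = 3.22e-06). No tSema4B library reached a vector library. Rrm1, the large subunit, read 1726, 1691 and 1476 in vector unstimulated, 1400.4, 1669 and 1344 in tSema4B unstimulated, 1318, 1242 and 1546 in vector NE and 1410.1, 1542 and 1379 in tSema4B NE libraries. These groups overlapped in both conditions (-0.15, adjusted p = 0.354 and 0.08, adjusted p = 0.606). Whether the subunits differ in their change was not tested. Tk1, thymidine kinase, had -0.42 (adjusted p = 0.0786) and -0.18 (adjusted p = 0.442), and Tyms, thymidylate synthase, 0.02 (adjusted p = 0.93) and 0.05 (adjusted p = 0.758).

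At the fork itself the members went different ways. Pcna, the sliding clamp, ranged over 965 to 1045 normalized counts in vector and 783 to 886 in tSema4B unstimulated libraries (-0.28, adjusted p = 0.0275) and over 1017 to 1036 and 861 to 884 after NE (-0.24, adjusted p = 0.0436). The groups did not overlap, but the change was small and the calls were lost without vector replicate 1 or 3 or tSema4B replicate 2 or 3 in the unstimulated libraries (adjusted p up to 0.118) and without any of the 6 libraries after NE (up to 0.117). With libraries rescaled to the same total Pcna after NE was at -0.14 (adjusted p = 0.247), and with quantile normalization at -0.17 (0.164). Lig1, the ligase that seals Okazaki fragments, read 452, 320.3 and 325 in vector unstimulated and 417, 475 and 568 in tSema4B unstimulated libraries (0.42 ± 0.14 SE, adjusted p = 0.0436), groups that overlapped. After NE it read 355, 348 and 395 and 479, 508 and 535, with tSema4B above vector throughout (0.47 ± 0.14 SE, adjusted p = 0.0155). The unstimulated call of Lig1 was lost without replicates 2 or 3 of vector or of tSema4B (adjusted p up to 0.196) and over nuclear genes (0.108), and the one after NE without vector NE replicate 1 or 2 or tSema4B NE replicate 3 (up to 0.0622). The primase subunit Prim1 had -0.01 (adjusted p = 0.958) and 0.22 (adjusted p = 0.168), and the polymerase alpha subunit Pola1 0.12 (adjusted p = 0.665) and 0.27 (adjusted p = 0.229). Prim1 passed as higher after NE with the same total (0.32, adjusted p = 0.0387). Pola1 passed as higher without stimulation when tSema4B unstimulated replicate 1 was left out (0.38, adjusted p = 0.0403). E2f1, an activator of this gene set, was low at 57.2 to 73.8 in vector unstimulated libraries and had -0.07 (adjusted p = 0.904) and -0.53 (adjusted p = 0.19). Fen1, the flap endonuclease, was lower still, with 9 to 36 reads per library, and 1909 of its 2422 exon bases lie in exons of another gene (Gm10143), where reads may not have been assigned to it. Its log2 fold change had a 95% interval of -0.78 to 0.93 without stimulation, so differences of Fen1 within it were not detectable at this depth.

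After NE, the comparison of tSema4B with vector gave fewer lower members and more higher ones. Of the 17 mitotic members 5 were lower (Aurka, Cdc20, Cdk1, Cenpa and Ube2c) and none higher, and of the 22 replication members 3 were lower (Ccne2, Pcna and Rrm2) and 4 higher (Lig1, Mcm3, Mcm4 and Mcm6). By edgeR and by DESeq2 6 mitotic members were lower, with Cenpe added, and rescaled over nuclear genes 9 were, with Ccna2, Ccnb1, Ccnb2 and Cenpe added. Together 8 of 39 fell and 4 of 39 rose, where 11.2% of all genes fell and 9.79% rose, so the share that rose was near the background. The share that fell was 8 of 39 against 15 of 39 without stimulation, and 12 against 19 rescaled over nuclear genes, where 2 and 0 members were higher. For mitotic members limma had 1 above 0 at an unadjusted p under 0.05 (Top2a), and edgeR and DESeq2 called none higher. No member passed both thresholds, which 5.76% of all genes did. The median log2 fold change was -0.26 over the mitotic and 0.14 over the replication members, beside -0.01 over all genes. All 8 members lower after NE were among the 15 lower without stimulation, that is 53.3% of those 15, and Lig1, the 1 member higher without stimulation, was among the 4 higher after NE (25%). With libraries rescaled to the same total the members split into 7 higher and 7 lower, beside 4 and 8 here, as the split of all genes moved from 1175 higher and 1342 lower to 1651 and 1030. Rescaled over nuclear genes, the split of all unstimulated calls moved from 677 higher and 887 lower to 475 and 1232, and that of the members from 1 and 15 to 0 and 19. After NE that rescaling gave 970 higher and 1569 lower among all genes, and 2 and 12 among the members. By edgeR 1451 and by DESeq2 1469 of all 11998 genes were lower after NE.

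Other features of the libraries moved with the same contrast. The 10 adipocyte markers (Adipoq, Plin1, Fabp4, Cidec, Lpl, Pparg, Cebpa, Cd36, Lipe and Pnpla2) were all lower with tSema4B in both conditions, their sum being 42229 to 48589 normalized counts in vector unstimulated and 7368 to 10115 in tSema4B unstimulated libraries, and 55998 to 67499 and 11361 to 12900.5 after NE. Of 12 markers of preadipocytes and fibroblasts 9 were higher without stimulation and 10 after NE, with sums of 18298 to 18853 and 33644 to 38241, then 14877 to 17181 and 31221 to 33198. Macrophage markers (6, of which 2 were at 0 in every library) summed to at most 59.6 in any library and endothelial markers (5, of which 1 was at 0) to at most 21.9. Markers also moved with NE. Of the 12 preadipocyte and fibroblast markers 5 were lower and 1 was higher with NE, in vector and in tSema4B cells alike. Of the adipocyte markers 1 was higher and 2 were lower in vector cells, and 3 were higher in tSema4B cells. Of 2 tested macrophage markers, 2 were higher in vector cells and 1 in tSema4B cells. The part of the adipocyte and preadipocyte markers in the change of the mitotic members was not tested. Depth also differed, and with reads thinned to 2000780 per library 10 mitotic members were again lower without stimulation and 6 after NE.

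The comparison of NE with no stimulation in vector cells gave 1 lower call among the members by limma, 3 by edgeR and 4 by DESeq2. By limma it gave 5 with libraries rescaled to the same total or quantile normalized. Of all 11998 genes, 574 were lower by limma, 642 by edgeR and 752 by DESeq2. With the same total 708 were lower, and with quantile normalization 652. Ccnb2 was the 1 member of 39 that fell (-0.70 ± 0.11 SE, adjusted p = 0.000285), where 4.78% of all genes fell, and no member rose, where 6.82% of all genes rose. With limma 1 member was above 0 at an unadjusted p of 0.05, and edgeR and DESeq2 each called 1 member higher, Rrm2. Both thresholds were passed by none of the members and by 2.63% of all genes. Summed over the 17 mitotic members, the level in vector cells was lower after NE without overlap, at -9.87%. It was at -12.6% with the same total and -10.9% over nuclear genes, also without overlap. The replication sums overlapped, at -3.1%. Of the 17 mitotic fitted values 14 were below 0. Ccnb2 went from 783 to 896 normalized counts in unstimulated to 477 to 539 in NE libraries, with no overlap. By limma as run here its relatives did not pass, with -0.33 (adjusted p = 0.0671) for Ccnb1, -0.05 (adjusted p = 0.816) for Ccna2 and -0.06 (adjusted p = 0.726) for Cdk1. Mki67 missed the threshold narrowly, at -0.45 ± 0.15 (SE, adjusted p = 0.0535), and passed in 11 of 18 alternatives. Ccnb1 passed in 9 of 18, with an adjusted p of 0.0463 by edgeR and 0.0282 by DESeq2. Kif11 (-0.28, adjusted p = 0.0872 here) passed by DESeq2 at 0.0459. By limma Kif11 passed with the same total (0.0415), quantile normalization (0.0263) and only the libraries compared (0.0273). The replication member Rrm1 passed as lower by limma with the same total (0.0488) and with quantile normalization (0.0391). Rrm2 lay higher after NE in every library, 767 to 809 against 602 to 675, but its change of 0.30 ± 0.10 did not pass (adjusted p = 0.0711).

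In tSema4B cells the same comparison found 3 replication members higher after NE and no mitotic member called by limma as run here. Of the mitotic members, Ccna2 passed as higher without tSema4B NE replicate 2 (0.33, adjusted p = 0.0477) and Ccnb2 as lower without tSema4B NE replicate 3 (-0.43, adjusted p = 0.0377). Of the mitotic members 3 were above and 1 below 0 at an unadjusted p under 0.05 with limma, and edgeR and DESeq2 called none. The 3 of 39 that rose compare with 3.68% of all genes higher and 2.58% lower. Ccne1 went from 51.2, 38.7 and 42.4 to 99.7, 92.8 and 83.2 normalized counts (1.05 ± 0.23 SE, adjusted p = 0.00715), the 1 member past both thresholds in any of the 4 comparisons, where 2.07% of all genes passed both here. Ccne2 went from 383, 409.9 and 361 to 521, 488 and 549.7 (0.43 ± 0.10 SE, adjusted p = 0.00812), and Gins1 from 48.9, 41.8 and 54.8 to 113, 69.1 and 81.9 (0.82 ± 0.23 SE, adjusted p = 0.0345). None of these groups overlapped. The call of Gins1 was lost without replicate 1 or 2 of tSema4B unstimulated or replicate 1 or 3 of tSema4B NE (adjusted p up to 0.147), while those of Ccne1 and Ccne2 held with each library left out in turn. All 3 were members that were lower with tSema4B without stimulation, and both comparisons share the tSema4B unstimulated libraries. In vector cells the values of NE for Ccne1, Ccne2 and Gins1 were 0.24 (adjusted p = 0.598), 0.17 (adjusted p = 0.314) and 0.16 (adjusted p = 0.746). No member was lower with limma, 1 was at an unadjusted p of 0.05, and edgeR and DESeq2 called none lower.

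Whether tSema4B changed the response to NE was tested by the interaction. By limma no member passed, in a test that 3 genes (0.025%) passed in all. With limma 6 of 39 members had an unadjusted p under 0.05, edgeR called no member and DESeq2 called Ccnb1 (0.60, adjusted p = 0.0207). By limma Ccnb1 had 0.60 ± 0.16 (SE, adjusted p = 0.179), the smallest adjusted p among the members, and the values for Ccne1 and Gins1 were 0.81 (adjusted p = 0.386) and 0.67 (adjusted p = 0.5). By limma and edgeR the effects of tSema4B on single members above were therefore not shown to differ between conditions, and by DESeq2 that holds for all members but Ccnb1. Of the 39 fitted interaction values 32 lay above 0, with a median of 0.20 over the mitotic and 0.10 over the replication members, beside 0.01 over all genes.

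**Figure D5:**
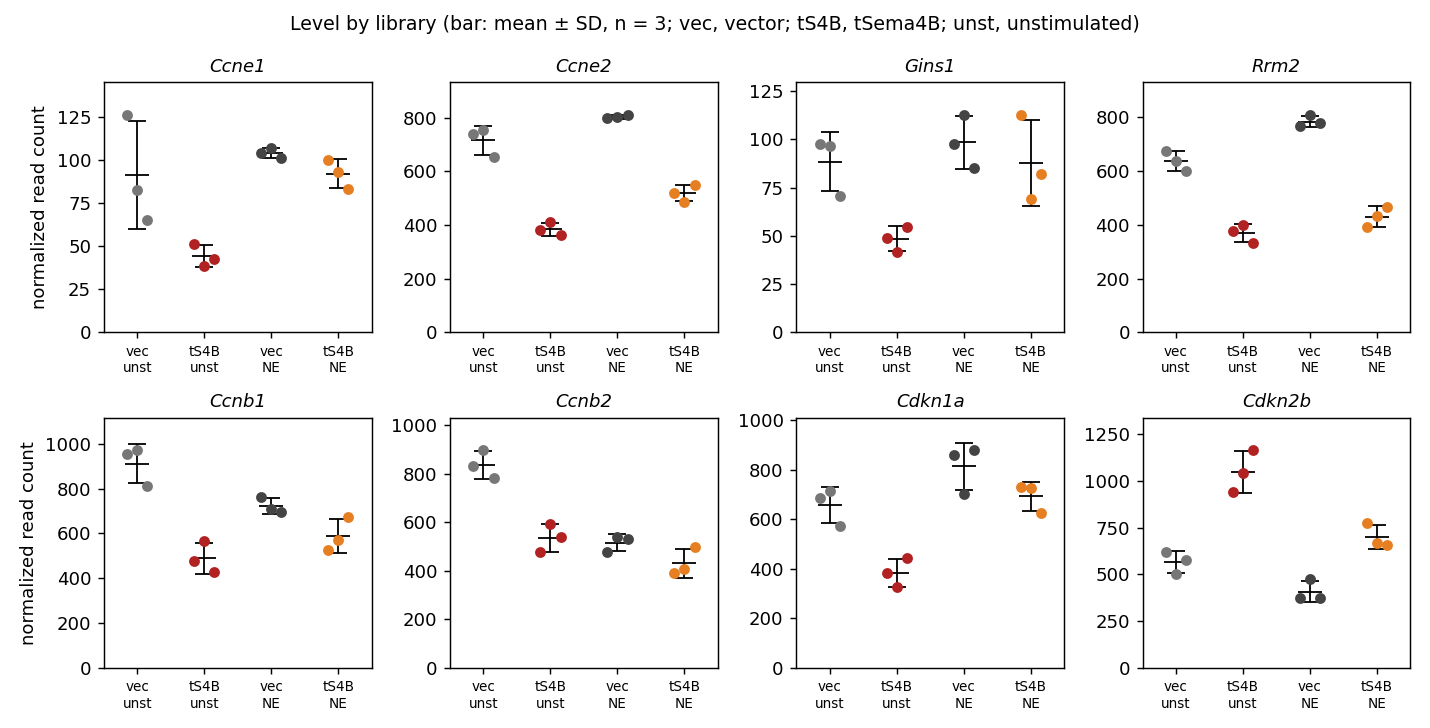
Normalized read count (y axes, from 0) in each library (points) by group (x axes) for 6 members, the cyclin genes Ccne1, Ccne2, Ccnb1 and Ccnb2, the GINS gene Gins1 and the reductase gene Rrm2, and for the CDK inhibitor genes Cdkn1a and Cdkn2b, with the mean ± SD (bars, n = 3). Ccne1 and Gins1 are low in tSema4B unstimulated libraries alone, Rrm2 is low in both tSema4B groups, and Ccnb2 is high in vector unstimulated libraries alone.

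Lists of other genes of the same pathways were read in the same way, beside the shares of all genes that passed higher and lower (5.64% and 7.39% for tSema4B without stimulation, 9.79% and 11.2% after NE, 6.82% and 4.78% for NE in vector cells, 3.68% and 2.58% for NE in tSema4B cells). Among 43 other replication genes (origin recognition, polymerases, clamp loader, chromatin assembly) none passed for tSema4B without stimulation, with limma 4 were at an unadjusted p under 0.05, edgeR called none and DESeq2 called 1. Their median was -0.01. After NE 3 were higher, led by Rfc5 (0.35, adjusted p = 0.0133), a clamp loader subunit, and Slbp (0.34, adjusted p = 0.00698), which binds histone mRNA, and 2 were lower, the origin recognition genes Orc4 (-0.62, adjusted p = 0.00337) and Orc2 (-0.55, adjusted p = 0.0171). As shares of 43 genes, both counts lie below those of all genes. With NE, 2 of 43 passed in each direction in vector cells and 1 of 43 as higher in tSema4B cells, also no larger a share than among all genes. NE raised Orc2 (0.62) and Orc4 (0.58) and lowered Uhrf1 (-0.34) and Rfc5 (-0.31) in vector cells and raised the kinase gene Cdc7 in tSema4B cells (0.65, adjusted p = 0.00832).

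Among 46 other mitotic genes 18 were lower with tSema4B without stimulation and none was higher (by limma, edgeR and DESeq2), with a median of -0.33 and 38 of 46 fitted values below 0, where 7.39% of all genes were lower. The lowest were Cdca3 (-0.87, adjusted p = 9.89e-05), which promotes entry into mitosis, and Cdc25b (-0.77, adjusted p = 0.00205), the phosphatase that activates Cdk1. After NE 13 of 46 were lower, where 11.2% of all genes were, led by Cks2 (-1.03, adjusted p = 8.23e-06), a Cdk1 subunit, and Cep55 (-0.82, adjusted p = 0.00647), a cytokinesis gene, and 1 was higher, the kinase gene Melk (0.43, adjusted p = 0.0372). In vector cells NE raised Cks1b (0.56) and Cks2 (0.43) and lowered 3 genes, led by Cdc25b (-0.52) and Ncapd2 (-0.41). In tSema4B cells none of the 46 passed, 4 were at an unadjusted p under 0.05 with limma, edgeR called none and DESeq2 called 1. Promoter windows of these other genes held a CHR word in 79.5% and a CCAAT box in 65.9% for mitosis, and in 18.2% and 52.3% for replication.

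Lists of regulators upstream are short, and their counts are read against the shares of all genes given above. Of 20 E2F, retinoblastoma and MuvB genes, Foxm1 (-0.68, adjusted p = 0.0355), which drives mitotic genes, and Myc (-0.49, adjusted p = 0.0369) were lower with tSema4B without stimulation, and Rbbp4 (0.28, adjusted p = 0.0274), a MuvB subunit, was higher, so that 2 of 20 were lower and 1 of 20 higher, close to the shares of all genes. After NE Myc (-0.88, adjusted p = 0.000266) and Rbbp4 (0.26, adjusted p = 0.0272) passed again, and Foxm1 had -0.17 (adjusted p = 0.625). NE raised Myc in vector (0.96) and in tSema4B cells (0.57), and Tfdp1, an E2F partner, in vector cells (0.40). Of 9 tested G1 cyclin and CDK genes none passed without stimulation (1 at an unadjusted p under 0.05 with limma, none by edgeR or DESeq2). After NE Ccnd3 was higher (0.47, adjusted p = 0.0115) and Ccnd2 (-0.98, adjusted p = 0.00026) and Cdk7 (-0.43, adjusted p = 0.0387) were lower with tSema4B. With NE none of the 9 passed, by limma, edgeR or DESeq2, with 3 in vector and 2 in tSema4B cells at an unadjusted p under 0.05 with limma.

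Of the 7 genes of CDK inhibitors, Cdkn2b, which encodes p15 and blocks Cdk4 and Cdk6, was higher with tSema4B in both conditions. It read 619, 501 and 578 normalized counts in vector unstimulated, 942, 1043 and 1165 in tSema4B unstimulated, 375, 474 and 376 in vector NE and 774, 668 and 658 in tSema4B NE libraries, with 0.89 (adjusted p = 1.07e-05) and 0.78 (adjusted p = 4.41e-05). Within each condition no vector library overlapped a tSema4B library. NE lowered it in vector (-0.47) and in tSema4B cells (-0.58). Cdkn1a, which encodes p21, was lower with tSema4B without stimulation (-0.78, adjusted p = 9.51e-05), had -0.23 (adjusted p = 0.206) after NE, and rose with NE in tSema4B cells (0.86, adjusted p = 0.000101). Cdkn2a was higher with tSema4B without stimulation (0.70, adjusted p = 0.00567) and fell with NE in tSema4B cells (-0.71), and Cdkn2d was lower with tSema4B in both conditions (-0.61 and -0.71). Of 14 tested p53 target genes Gadd45a was higher (1.20) and Trp53inp1 lower (-0.94) with tSema4B without stimulation, and Sesn1 was higher (0.64) and Aen lower (-1.26) after NE, 1 of 14 in each direction both times, which is near or below the shares of all genes. In vector cells NE raised Bax (0.73) and lowered 3 genes, led by Trp53inp1 (-0.86) and Ccng1 (-0.57). In tSema4B cells none passed with NE, by limma, edgeR or DESeq2, and none was at an unadjusted p under 0.05.

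Levels between members are comparable only per length. Per kilobase of exon, the mean level in vector unstimulated libraries was highest for Cdc20 at 644 normalized counts, Ccnb2 at 547 and Mcm6 at 486, and lowest for E2f1 at 20.1 and Fen1 at 7.02. In tSema4B unstimulated libraries Cdc20 stood at 403, Ccnb2 at 350.2 and Mcm6 at 539.8, so that Mcm6 was then the highest member. Exons of Ccne2, Cdc20 and Ube2c share 609, 53 and 592 bases with a neighbouring gene (Ints8, Elovl1 and Tnnc2).

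Read by promoter word, without a test, the members with a CHR word in any window (15) had a median log2 fold change of -0.39 for tSema4B without stimulation and 7 lower calls, and the 18 with windows but no such word had -0.04 and 5 lower calls. After NE the medians were -0.15 and 0.07, with 5 and 2 lower calls. The word follows the division into mitotic and replication members, so these values are not separate from it. Ccnb1 and Cenpe passed lower without a CHR word in their windows, while Mki67, Plk1, Bub1, Bub1b and Top2a hold one and did not pass.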

How the data were processed

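RNA sequencing of 12 libraries in 4 groups of 3 was analysed. Per the submitters' processing notes, reads were aligned with STAR 2.7.9a to mm10 (GRCm38.p4), counted with htseq-count and normalized with DESeq2. The authors deposited a signal per gene and library, namely counts divided by a size factor (normalized read counts). Whole reads were recovered for every value within 0.01, giving 2000780 to 5409583 reads per library, so low genes in the shallow tSema4B libraries have the larger counting error. The libraries (SMART-Seq2 with Nextera) do not mark strand, so reads in exon bases that overlapping genes share cannot be told apart. Whether counting used a strand setting is not given in the sources used here.

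The test was limma 3.58.1 in R 4.3.3 (trend, two-sided) on log2(normalized count + 1), with all 12 libraries in 1 fit, genes at 10 or more in at least 3 libraries (11998 of 48321), and Benjamini-Hochberg adjustment over all of them. The statistics were tested on simulated data. The members and all lists were chosen with earlier results of these data known, so no list was given a p-value. Values per library are given for the 14 members with the smallest adjusted p in any comparison of 2 groups among those that pass. They are also given for the 2 members of each set with the largest mean normalized count, not divided by length. From the other lists at most 2 genes per direction and comparison are named, those with the largest change among genes that pass. Other genes and values (Sema4b, the libraries of Cdkn2b and Gins1, Foxm1 and Cdkn1a after NE) were added for context.

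Alternatives were pseudocounts of 0.5 and 10, no filter and a filter at 50, quantile normalization, rescaling to the same total or over nuclear genes, tests with edgeR 4.0.16 and DESeq2 1.42.0 on the recovered reads, a replicate block, only the libraries compared, each library left out, and both thresholds. Both rescaled totals included Sema4b, the transduced gene. Thinning to the shallowest library and rescaling of the summed levels were added after seeing the data. Promoter words were searched in RefSeq windows (GRCm38.p6). Exon lengths and shared bases came from GENCODE gene models.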

Additional observations from a re-analysis of the deposited data

How the results depend on the processing

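Of the calls on members, 9 of 16 for tSema4B without stimulation, 8 of 12 after NE, 1 of 1 for NE in vector cells and 1 of 3 for NE in tSema4B cells held under every alternative, both thresholds aside. No result changed direction while called. Without stimulation, the 15 lower members became 11 to 14 with a library left out and 0 at both thresholds, and the 1 higher member became 0 to 2 with a library left out, 2 with quantile normalization and 0 without the filter, rescaled over nuclear genes, with only the libraries compared and at both thresholds. The median of the replication members (0.04) ran from -0.0064 to 0.074 with a library left out and was -0.049 over nuclear genes, and that of the mitotic members (-0.41) ran from -0.47 to -0.37 and was -0.49. After NE, the 8 lower members became 7 to 10 with a library left out, 9 with edgeR, DESeq2 and thinned, 12 over nuclear genes and 0 at both thresholds, and the 4 higher became 1 to 4, 2 without the filter or over nuclear genes, 7 with the same total and 0 at both thresholds. The replication median (0.14) ran from 0.11 to 0.16 and was 0.24 with the same total and 0.093 over nuclear genes, and the mitotic median (-0.26) ran from -0.37 to -0.21 and was -0.17 with the same total.

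For NE in vector cells, the 0 higher members became 1 with only the libraries compared, with edgeR and with DESeq2. The 1 lower member became 1 to 2 with a library left out, 2 with a pseudocount of 10, 3 with a filter at 50, over nuclear genes, with edgeR and thinned, 4 with only the libraries compared and with DESeq2, 5 with the same total and with quantile normalization, and 0 at both thresholds. The replication median (-0.01) ran from -0.086 to 0.018 and was -0.055 with the same total and -0.076 with quantile normalization, and the mitotic median (-0.13) ran from -0.22 to -0.11. For NE in tSema4B cells, the 3 higher members became 2 to 4 with a library left out and 1 with only the libraries compared or at both thresholds, where Ccne2 and Gins1 were lost, and the 0 lower became 0 to 1. The replication median (0.05) ran from 0.027 to 0.085 and was 0.016 with quantile normalization. For the interaction, the 0 higher members became 1 with DESeq2. Its replication median (0.10) ran from 0.082 to 0.15 and was 0.17 with the same total and 0.14 over nuclear genes, and its mitotic median (0.20) ran from 0.10 to 0.31. The cause of these shifts was not tested.

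Replicate numbers did not pair the libraries, since the 18 same-numbered pairs correlated between -0.047 and 0.028. With the replicate block the higher members without stimulation went from 1 to 0 (Lig1, adjusted p = 0.0526), Pcna was lost after NE (0.058), and the lower members with NE in vector cells went from 1 to 2. Fen1, E2f1, Ccne1 and Gins1 were the members with the fewest reads. Thinned to the shallowest library, Gins1 lost its calls for tSema4B without stimulation (adjusted p = 0.0906) and for NE in tSema4B cells (0.0929). The calls of Ccne1 in these comparisons held when thinned.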
